A study of Mus musculus with 2 samples.

Results

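Genes of chromatin modifying enzymes were taken by name from the array: histone deacetylases (Hdac), sirtuins (Sirt), DNA methyltransferases (Dnmt), Ezh, Setd and Suv lysine methyltransferases, arginine methyltransferases (Prmt), lysine demethylases (Kdm) and the TET dioxygenases Tet1, Tet2 and Tet3. The rule gave 64 genes with 96 probes, of 55681 non-control probes on the array. A measurable signal, well above background in at least 1 dye channel on both arrays, was found for 60 of the 64 genes, among 19871 genes in all. Kdm4d, Kdm4dl, Kdm5d and Prmt8 were not well above background in either channel and have no value here. The series compared C57BL/6 mouse erythroid progenitors of the fetal liver at stage E14.5, depleted of lineage-positive cells. They had been transduced either with the empty vector or with ESlncRNA, a long noncoding RNA of erythroid cells also called lincRNA-EPS, and sorted for GFP. Each of 2 two-colour arrays set ESlncRNA RNA (Cy5) against vector RNA (Cy3). The promoter that drove the construct, and whether the replicates came from separate animals or cultures, are not given in the sources used here.

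Chromatin carries chemical marks on histone tails and on the cytosines of DNA, which one set of enzymes writes and another erases. Methyltransferases of the Ezh, Suv, Setd and Prmt families write marks on lysine or arginine, and Kdm demethylases remove those on lysine. Hdac enzymes and sirtuins remove acetyl groups. Dnmt enzymes methylate cytosine in CpG sites and TET enzymes oxidise the methyl group, a step towards its removal. During red cell maturation the nucleus condenses before it is expelled, and erythroid genes are switched on while those of other blood lineages are silenced, so these enzymes have long been studied in this lineage.

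The over-expressed RNA was seen on both arrays. A lincRNA interval on chromosome 4 beside Eps15, taken for ESlncRNA from its position after values had been seen, gave log2 ratios of 2.22 and 2.19. Vector RNA gave no signal well above background at that probe, which makes the difference at least 4.62-fold. Values below are log2 ratios of ESlncRNA over vector, positive where the ESlncRNA RNA was higher, or channel levels in log2 normalised intensity. Both arrays had the same dye orientation, so a dye effect of a probe would add to its ratio on both alike. The median spot signal ranged from 35.9 to 39.5 in the vector channel and from 67.8 to 76.3 in the ESlncRNA channel, and between 44.4% and 52.1% of spots were well above background. The ratios of the 2 arrays correlated at r = 0.983 across genes, which are not independent replicates. The probes of Hdac2 and Setd2 were spotted 10 times on each array. The SD between spots of 1 array was 0.094 on both arrays for Hdac2 and 0.095 and 0.060 for Setd2. The SD between the 2 array means was 0.023 for Hdac2 and 0.0098 for Setd2. A mean of 10 spots varies less than a single spot, so these SDs cannot tell technical from biological spread. The p-values measure the spread between these arrays, which may be technical.

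Of the 60 genes measured, 18 were higher and 20 lower with ESlncRNA (limma with an adjusted p below 0.05), while 22 missed the threshold. That is 30% higher and 33.3% lower, beside 26.3% higher and 36.8% lower among all 19871 genes, 63.0% called in all. The shares of called genes were therefore close to the background of this comparison. The counts include Hdac11, called higher, and Hdac9 and Dnmt3l, called lower. These 3 entered through the channel in which they were brighter, on 1 or both arrays. Where both channels had to be above background, 17 of 57 genes were higher and 20 lower, beside 29.1% and 34.3% of all genes. The split of the calls depended on the scaling, with 47 higher and 8 lower under median centring and 27 higher and 12 lower with the scanner software's processed signals. The calls of all genes shifted too, to 63.0% higher and 18.3% lower under median centring. With the processed signals they were 34.3% higher and 23.7% lower. Most of the changes were small, since 52 of the 60 genes differed by less than 1.5-fold in the mean. The median log2 ratio was -0.01, against -0.03 for all genes, and the median size of the ratio, with the sign left out, was 0.179 against 0.212. At least 1.5-fold higher on both arrays was 1 gene, Suv420h1, beside 3.24% of all genes. The same size of decrease on both arrays was found for 6 genes, Dnmt3l, Dnmt3b, Hdac5, Dnmt3a, Tet1 and Sirt5, beside 13.5% of all genes. The first 4 of these were also at least 2-fold lower on both arrays, beside 8.10% of all genes, and none was at least 2-fold higher, beside 0.604%. Just outside the 1.5-fold rule, on the array with the smaller ratio, lay Sirt3 at -0.56, Suv39h1 at 0.55 and Tet2 at -0.51, and Sirt5 lay just inside at -0.66.

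**Figure D1:**
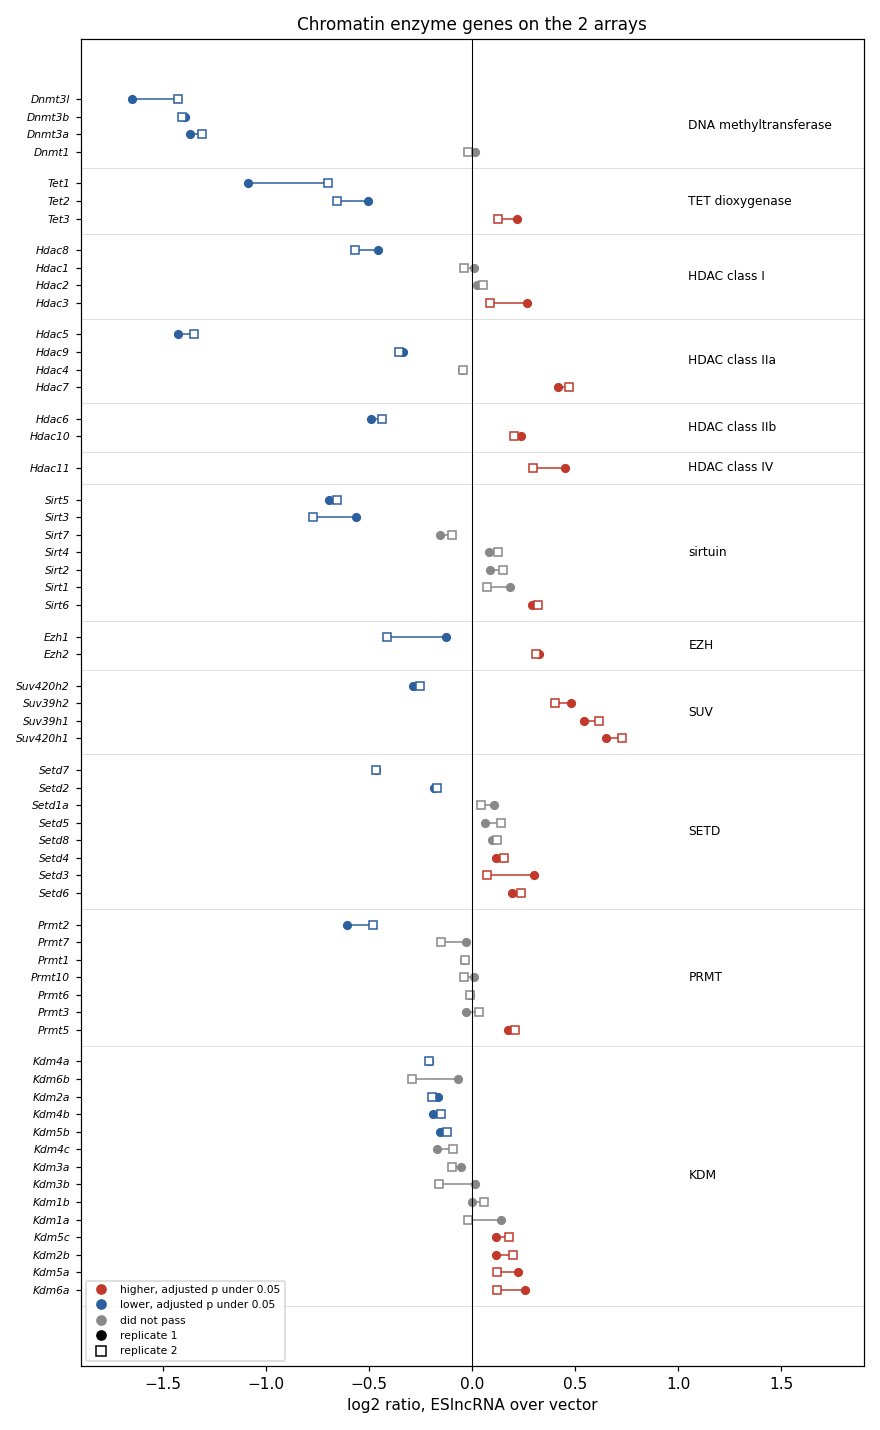
Log2 ratio of ESlncRNA over vector (x axis) for each of the 60 chromatin enzyme genes (y axis, grouped by enzyme class), with the array of replicate 1 as filled circles and that of replicate 2 as open squares, red for genes called higher, blue for lower and grey for those that did not pass. Dnmt3l, Dnmt3b, Hdac5 and Dnmt3a stand apart below -1.3 on both arrays, while Suv420h1 at 0.65 and 0.73 is the highest. With median centring in place of loess, 9 of the 20 blue genes turn positive.

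**Figure D2:**
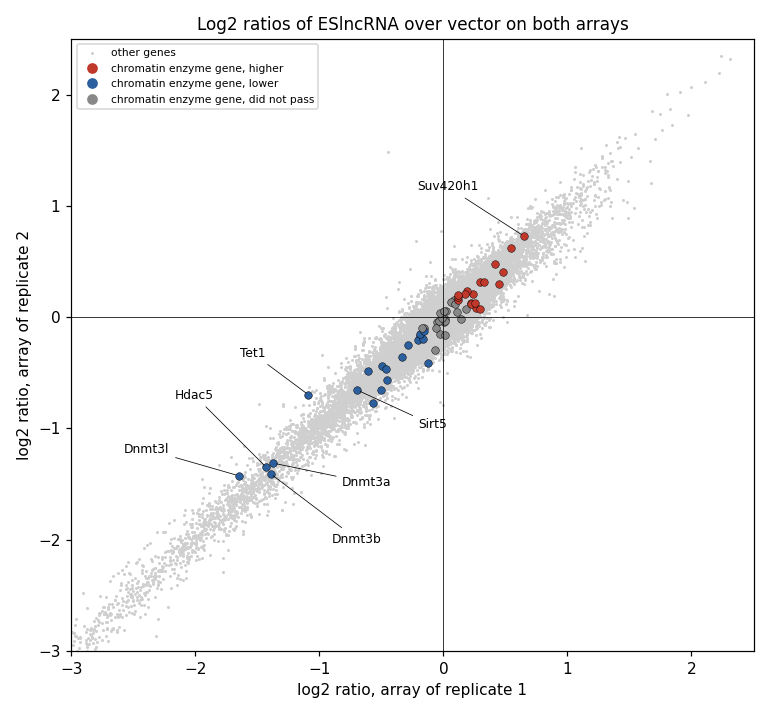
Log2 ratio on the array of replicate 1 (x axis) against that of replicate 2 (y axis) for the chromatin enzyme genes (coloured) and all other genes (light grey). The axes end at -3, so genes lowered more than that are not drawn, and the 7 named genes are those at least 1.5-fold one way on both arrays.

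The DNA methyltransferases of de novo methylation were lower with ESlncRNA and the maintenance enzyme was not called. Of 4 measured Dnmt genes, 3 fell, 0 rose and Dnmt1 did not pass, beside 36.8% lower and 26.3% higher among all genes. The 3 and the family median of -1.37 include Dnmt3l, which on 1 array entered only through the vector channel, where it was brighter. Dnmt3b, which methylates unmethylated CpG sites, had vector levels of 13.28 and 13.09 and ESlncRNA levels of 11.89 and 11.68. Both ESlncRNA values lay below both vector values, and the log2 ratio was -1.40 ± 0.012 (SD, n = 2 arrays; 2.64-fold lower, adjusted p = 1.38e-06). Dnmt3a, the other catalytic de novo enzyme, had vector levels of 10.31 and 10.22 and ESlncRNA levels of 8.94 and 8.91. The groups did not overlap, and the ratio was -1.34 ± 0.040 (2.53-fold lower, adjusted p = 1.86e-06). Dnmt3l, a cofactor of these enzymes without catalytic activity of its own, had dim levels, 7.99 and 7.84 with vector and 6.35 and 6.42 with ESlncRNA. It was lower in both ESlncRNA samples (-1.54 ± 0.16, 2.90-fold lower, adjusted p = 3.83e-06), but the ESlncRNA channel was well above background on 1 array only. The size of the Dnmt3l ratio depends on how background is treated, and it was -2.78 with the scanner software's processed signals. Median centring put Dnmt3b at -0.77 and Dnmt3a at -0.91, both less than 2-fold lower, and Dnmt3l at -1.35. Dnmt1, which copies methylation onto the new strand after replication, had vector levels of 12.27 and 12.10 and ESlncRNA levels of 12.29 and 12.08. These groups overlapped, and the ratio was -0.0008 ± 0.024 (adjusted p = 0.989), although median centring put Dnmt1 at 0.61, where the median of all genes was 0.34. The RNA is that of a whole sorted population, in which fewer cells of a type and less RNA per cell cannot be told apart.

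Markers of other blood cells moved in the same RNA as the Dnmt3 genes. All 17 granulocyte markers were lower with ESlncRNA (median -4.29), and the log2 of their summed normalised intensity was 20.20 to 20.35 with vector and 16.12 to 16.37 with ESlncRNA. Of 14 measured stem and early progenitor markers, 13 were lower and 1 higher (median -1.66, or -2.99 with the scanner software's processed signals). Their summed levels on the same scale were 16.23 to 16.31 with vector and 15.17 to 15.30 with ESlncRNA. Among all genes 36.8% were lower. A marker seen only in vector RNA passed the background filter too, and could hardly come out as anything but lower. How many markers entered in that way was not counted. The part of these marker sets in the lower Dnmt3, Tet, Hdac5 and other chromatin enzyme signals was not tested.

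The promoters of the lowered Dnmt3 genes were read from the RefSeq table of build GRCm38.p6, since the genes fell together. Shown are the 150 bases just upstream of the annotated start with the most CG pairs, 5′ to 3′ on the gene's strand, with each CG in capitals.
Dnmt3a (chr12:3807010-3807159, forward strand): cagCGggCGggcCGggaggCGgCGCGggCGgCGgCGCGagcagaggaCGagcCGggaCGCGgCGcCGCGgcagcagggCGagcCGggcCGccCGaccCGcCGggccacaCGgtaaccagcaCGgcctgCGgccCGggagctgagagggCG
Dnmt3b (chr2:153649299-153649448, forward strand): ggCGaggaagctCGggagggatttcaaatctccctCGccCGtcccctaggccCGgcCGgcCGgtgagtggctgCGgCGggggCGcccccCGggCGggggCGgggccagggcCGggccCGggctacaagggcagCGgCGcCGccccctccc
Dnmt3l (chr10:78042137-78042286, forward strand): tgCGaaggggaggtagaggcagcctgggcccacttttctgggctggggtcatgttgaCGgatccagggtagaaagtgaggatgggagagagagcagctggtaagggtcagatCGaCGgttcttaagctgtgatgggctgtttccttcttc
CG reads the same on both strands. The Dnmt3a stretch held 28 CG pairs, that of Dnmt3b 18 and that of Dnmt3l 4. In the full window of 300 bases around the start Dnmt3a had 47, Dnmt3b 30 and Dnmt3l 6, and Dnmt1, which was not called, had 33. Of 27025 genes in the table, 94.6% had at least 1 CG pair in such a window, 1.66% had as many as Dnmt3a, 12.9% as many as Dnmt3b and 58.2% as many as Dnmt3l. The genes that fell together thus differed widely in CG content. Over the 55 chromatin enzyme genes found in the table the median was 23 CG pairs, against 8 over all genes, with a median of 29 for those that rose (15 genes), 20 for those that fell (18 genes) and 28 for those that did not pass (19 genes), the rest having no measurable signal.

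The TET dioxygenases moved both ways, with Tet1 and Tet2 lower and Tet3 called higher by its brightest probe. Tet2, an enzyme often mutated in human myeloid disease, had vector levels of 10.59 and 10.58 and ESlncRNA levels of 10.08 and 9.92. The groups did not overlap, and the ratio was -0.58 ± 0.11 (adjusted p = 0.000194), while a dimmer Tet2 probe gave -0.47. With median centring Tet2 was at -0.10, below the median of all genes at 0.34. Tet1 had vector levels of 7.92 and 7.72 and ESlncRNA levels of 6.83 and 7.02. All 3 Tet1 probes were lower with ESlncRNA, the brightest at -0.89 ± 0.28 (1.86-fold lower, adjusted p = 0.000255). The arrays differed more for Tet1 than for the Dnmt3 genes, with -1.09 on one and -0.70 on the other. The other Tet1 probes are shown because they lie apart in the transcript, and the first of them is the nearer to its 3′ end (mm9, reverse strand).
Tet1 from transcript position 5202 (chr10:62276042-62276101): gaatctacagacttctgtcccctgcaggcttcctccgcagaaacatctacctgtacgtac
Tet1 from transcript position 3128 (chr10:62301856-62301915): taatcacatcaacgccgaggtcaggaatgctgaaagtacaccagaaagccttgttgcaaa
The probe at position 5202 gave -0.55 ± 0.16. The one at position 3128 was not well above background in the ESlncRNA channel, so it was at least 1.55-fold lower. Tet3 was near the background on the array, with vector levels of 7.15 and 7.26 and ESlncRNA levels of 7.37 and 7.39. Its brightest probe rose (0.17 ± 0.066, adjusted p = 0.0244), a second one did not pass (-0.03) and a dimmer one fell (-0.20 ± 0.051, adjusted p = 0.0118), so the direction of Tet3 was not settled, and the mean of its probes was -0.019.

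**Figure D3:**
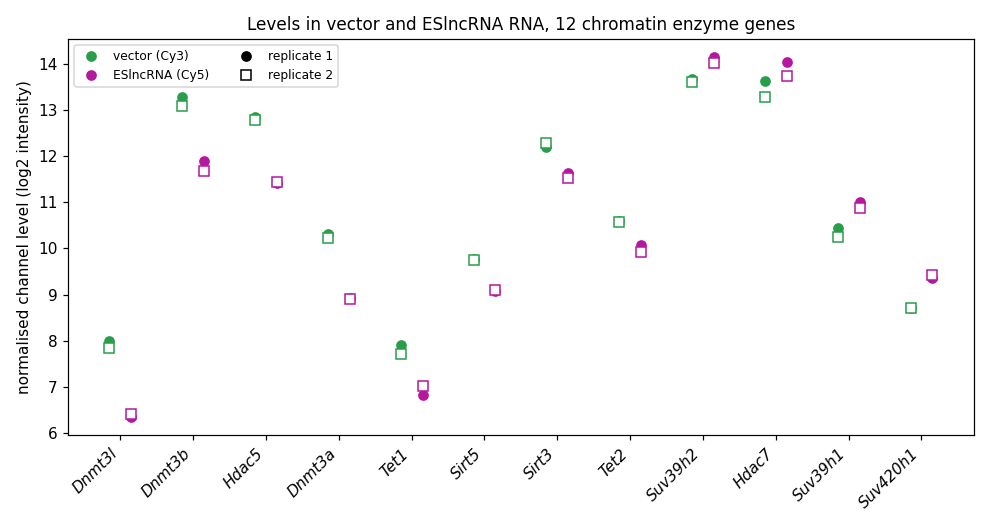
Normalised channel level (y axis, log2 intensity) of 12 chromatin enzyme genes (x axis) in vector RNA (green) and ESlncRNA RNA (purple), with replicate 1 as filled circles and replicate 2 as open squares. The 12 were chosen with their ratios on both arrays known, so the lack of overlap between their vector and ESlncRNA values is not a separate result. Levels of different genes come from different probes and are not comparable with each other.

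Among the histone deacetylases Hdac5 was lower, and Hdac7, of the same class, higher. Of 11 measured Hdac genes, 4 rose and 4 fell (36.4% each), beside 26.3% and 36.8% of all genes. The other 3 did not pass, and the median was -0.02. These counts include Hdac11 as a rise and Hdac9 as a fall, each of which entered only through the channel in which it was brighter. Hdac5, a class IIa enzyme that shuttles between nucleus and cytoplasm and represses MEF2 targets, had vector levels of 12.84 and 12.78 and ESlncRNA levels of 11.41 and 11.43. The groups did not overlap, and the ratio was -1.39 ± 0.054 (2.62-fold lower, adjusted p = 1.77e-06). With median centring it was at -0.78, less than 2-fold lower. Hdac7, of the same class, went the other way, with vector levels of 13.62 and 13.27 and ESlncRNA levels of 14.04 and 13.74. It rose by 0.44 ± 0.040 (adjusted p = 0.000358), without overlap between the groups. The other class IIa enzymes were Hdac4, which did not pass (-0.05), and Hdac9, whose ESlncRNA channel was not well above background. Hdac9 was at least 1.17-fold lower, with measured levels of 6.44 and 6.49 against 6.11 and 6.13.

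Of the class I deacetylases, Hdac1, Hdac2 and Hdac3 are nuclear enzymes of the Sin3, NuRD, CoREST and NCoR complexes. Hdac1 (-0.02, adjusted p = 0.785) and Hdac2 (0.04, adjusted p = 0.510) did not pass. Hdac2 was dim, with vector levels of 7.47 and 7.48 and ESlncRNA levels of 7.49 and 7.53. With the scanner software's processed signals Hdac2 was at 0.35. Dimmer Hdac1 probes gave -0.19, called lower (adjusted p = 0.0182), and 0.11, which did not pass. Hdac3, the deacetylase of the NCoR complexes, was called higher at 0.17 ± 0.13 (adjusted p = 0.0415), with 0.27 on one array and 0.08 on the other. Hdac8 fell by its brighter probe and not by its dimmer one. The 2 probes are shown because they disagree; the first lies across exon junctions, over 94900 bases of the genome (mm9, chromosome X, reverse strand).
Hdac8 from transcript position 1043 (chrX:99503070-99597969): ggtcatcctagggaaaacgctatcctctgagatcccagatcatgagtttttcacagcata
Hdac8 from transcript position 108 (chrX:99700320-99700379): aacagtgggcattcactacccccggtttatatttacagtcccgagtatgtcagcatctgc
At position 1043 the vector levels were 8.38 and 8.60 and the ESlncRNA levels 7.92 and 8.03, a ratio of -0.51 ± 0.078 (adjusted p = 0.000257). At position 108 the ratio was 0.003 ± 0.017 (adjusted p = 0.961). Of the class IIb enzymes, Hdac6, a cytoplasmic deacetylase of tubulin, was lower by loess (-0.47 ± 0.037, adjusted p = 0.000281) and at 0.014 with median centring, which is -0.33 relative to the median of all genes. Its 2 probes start 12 bases apart in the transcript, at 4069 and 4081, and are not separate measurements. Hdac10, a polyamine deacetylase, rose by 0.22 ± 0.021, and its second probe by 0.19. Hdac11, the sole class IV enzyme, was not well above background with vector and was at least 1.29-fold higher, from 6.26 on both vector arrays to 6.71 and 6.56.

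Of 7 sirtuins, the deacylases that consume NAD, 2 fell and 1 rose, beside 36.8% and 26.3% of all genes, and 4 did not pass. Both that fell encode enzymes of the mitochondrion rather than of chromatin. Sirt5, which removes succinyl and malonyl groups, had vector levels of 9.78 and 9.75 and ESlncRNA levels of 9.08 and 9.10. Sirt3, the main mitochondrial deacetylase, had 12.20 and 12.28 against 11.64 and 11.51. Neither gene's groups overlapped, and the ratios were -0.67 ± 0.025 for Sirt5 (1.60-fold lower, adjusted p = 4.56e-05) and -0.67 ± 0.15 for Sirt3 (1.59-fold lower, adjusted p = 0.000172). With median centring they were at -0.26 and -0.08, both still below the median of all genes. Sirt4, the remaining mitochondrial sirtuin, did not pass (0.10, adjusted p = 0.107). Sirt6, a chromatin-bound deacylase, rose by 0.30 ± 0.018 (adjusted p = 0.00181), and its second probe gave the same 0.30. Sirt1 (0.13), Sirt2 (0.12) and the nucleolar Sirt7 (-0.13) did not pass, although a dimmer Sirt7 probe was called lower (-0.32, adjusted p = 0.00189).

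The interchangeable catalytic subunits of Polycomb repressive complex 2 moved in opposite directions with loess. Ezh2, the form of dividing cells, had vector levels of 11.91 and 12.03 and ESlncRNA levels of 12.23 and 12.34. The groups did not overlap and the arrays gave almost the same ratio (0.32 ± 0.0093, adjusted p = 0.00146). Ezh1, the form that persists in resting cells, had 11.58 and 11.66 against 11.45 and 11.24, a ratio of -0.27 ± 0.20 (adjusted p = 0.0191). Its arrays differed, with -0.13 and -0.41, and a second Ezh1 probe gave -0.28 ± 0.077. With median centring Ezh1 was at 0.29, which is -0.05 relative to the median of all genes, and Ezh2 at 0.92. Among 9 measured partners of this complex, 3 were higher and 2 lower, beside 26.3% and 36.8% of all genes, and 4 not past (median 0.04). Suz12, a core subunit, was at 0.15 (adjusted p = 0.0378) and Eed, which binds the methylated histone, at 0.08 (did not pass). Rbbp4, a histone-binding subunit shared with deacetylase complexes, fell by 0.64 and Mtf2, a factor that recruits the complex to CpG islands, by 0.61, while Phf1 rose by 0.33.

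The Suv39h methyltransferases, which place the histone H3 mark of constitutive heterochromatin, were both higher. Suv39h1 had vector levels of 10.45 and 10.25 and ESlncRNA levels of 10.995 and 10.867, without overlap, and rose by 0.58 ± 0.050 (1.496-fold, adjusted p = 0.000108). Its single probe is shown as the base of that value (mm9, chromosome X, reverse strand).
Suv39h1 (chrX:7647715-7647774): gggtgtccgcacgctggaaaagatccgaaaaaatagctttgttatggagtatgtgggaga
Suv39h2 had 13.66 and 13.61 against 14.14 and 14.01, and rose by 0.44 ± 0.056 (1.36-fold, adjusted p = 0.000412), with a dimmer probe at 0.22. Suv420h2, which methylates histone H4, was lower with loess (-0.27 ± 0.024, adjusted p = 0.00305) but at 0.52 with median centring, above the median of all genes. Its levels were 14.34 and 14.31 with vector and 14.05 and 14.06 with ESlncRNA.

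Suv420h1, the other histone H4 methyltransferase of this family, had the highest ratio of the 60 chromatin enzyme genes, but 1 of its 4 probes carried it. The brightest probe had vector levels of 8.71 on both arrays and ESlncRNA levels of 9.36 and 9.43, a rise of 0.69 ± 0.054 (1.61-fold, adjusted p = 4.97e-05). The other probes gave 0.001, -0.08 and -0.20, and the last of these was called lower (adjusted p = 0.0149). The disagreeing probes lie at different places on chromosome 19 (mm9, forward strand), and the brightest is annotated to an Ensembl transcript alone. Of the brightest, 30 bases are shown with AATAAA, the sequence of a polyadenylation signal, in capitals. Whether it acts as a signal there was not tested. The probe that fell is shown whole.
Suv420h1, brightest (probe at chr19:3808776-3808835): gttggttctcttAATAAAggcagtgcaatg
Suv420h1, lower (chr19:3815371-3815430): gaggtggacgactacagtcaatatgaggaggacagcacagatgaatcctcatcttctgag
AATAAA was searched on the strand of the probes. It occurred in 1 of the 4 Suv420h1 probes, in 10 of the 96 chromatin enzyme probes and in 5602 of the array's 55681 probes, and on the opposite strand in 0 of the 4. The related ATTAAA occurred in 1 of the 4 Suv420h1 probes and in 7 of the 96. The mean over the 4 probes was 0.10. A rise of this gene therefore rests on 1 probe.

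Of 8 measured Setd genes 3 rose and 2 fell, beside 26.3% and 36.8% of all genes, and 3 did not pass. None reached 1.5-fold in its brightest probe. Setd7, a methyltransferase of histone H3 and of other proteins, had vector levels of 11.57 and 11.56 and ESlncRNA levels of 11.10 and 11.09. It was lower by loess (-0.47 ± 0.0003, adjusted p = 0.000251) and at 0.083 with median centring, which is -0.26 relative to the median of all genes. Setd2, which methylates histone H3 in transcribed gene bodies, was at -0.18 ± 0.0098 (adjusted p = 0.0169) and turned to 0.40 with median centring. Setd6 (0.21), Setd3 (0.19), an actin histidine methyltransferase, and Setd4 (0.14) were called higher, though the Setd4 channel levels overlapped between the groups. Setd1a (0.08), Setd5 (0.10) and Setd8 (0.11) did not pass.

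Setd8, which adds the single methyl group to histone H4 on which the Suv420h enzymes build, was measured by a pair of probes with different results. The brighter, from transcript position 2304, had vector levels of 12.66 and 12.69 and ESlncRNA levels of 12.75 and 12.81, a ratio of 0.11 ± 0.017 (adjusted p = 0.0918). The dimmer probe lies across an exon junction nearer the 5′ end and is shown for that reason (mm9, forward strand, 3350 bases of the genome).
Setd8 from transcript position 334 (chr5:124897355-124900704): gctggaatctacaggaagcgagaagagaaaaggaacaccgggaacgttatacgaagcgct
There the arrays gave 0.61 and 0.72, a ratio of 0.66 ± 0.076 (1.58-fold higher, adjusted p = 7.29e-05). The rule of the brightest probe places Setd8 among the genes that did not pass, and the mean of both probes was 0.39.

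Of 7 measured arginine methyltransferases 1 was higher and 1 lower, beside 26.3% and 36.8% of all genes, and 5 did not pass. Prmt2 had vector levels of 9.61 and 9.63 and ESlncRNA levels of 8.998 and 9.147, without overlap, and was lower (-0.55 ± 0.091, 1.46-fold, adjusted p = 0.000219). With median centring it was at -0.14. Prmt5, which makes symmetric dimethylarginine on histones and splicing proteins, rose by 0.19 ± 0.023 (adjusted p = 0.0134), from 13.42 and 13.41 to 13.59 and 13.61. Prmt1, the main asymmetric arginine methyltransferase, did not pass by its brightest probe (-0.04, adjusted p = 0.524) and was lower by its other probe (-0.28, adjusted p = 0.00248). Prmt6, Prmt3, Prmt10 and Prmt7 lay between -0.09 and 0.002 and did not pass. A dimmer Prmt6 probe annotated to a noncoding transcript rose by 0.34, while another probe of that transcript did not pass (0.03, adjusted p = 0.682). A dimmer Prmt7 probe was called lower (-0.16, adjusted p = 0.0335).

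All 14 measured Kdm genes had ratios between -0.21 and 0.19, with a median of -0.08. Of these, 4 were higher and 4 lower (28.6% each), beside 26.3% and 36.8% of all genes, and 6 did not pass. Higher were Kdm6a (0.19 ± 0.094), which removes the Polycomb mark, Kdm5a (0.17 ± 0.073) and Kdm5c (0.15 ± 0.043), which act on the promoter mark of histone H3, and Kdm2b (0.16 ± 0.059), a CpG island binding protein. The dimmer probes of Kdm5c (0.06, adjusted p = 0.336) and Kdm2b (0.0075, adjusted p = 0.914) did not pass. Called lower with loess and positive with median centring were Kdm4a (-0.21 ± 0.0018 and 0.35), Kdm2a (-0.18 ± 0.022 and 0.24), Kdm4b (-0.17 ± 0.029 and 0.35) and Kdm5b (-0.14 ± 0.023 and 0.53). The Kdm5b channel levels overlapped between the groups. Kdm1a, the demethylase of the CoREST complex that works with Gfi1b in erythroid cells, had vector levels of 13.07 and 13.01 and ESlncRNA levels of 13.21 and 12.99. These overlapped, and Kdm1a did not pass (0.06 ± 0.11, adjusted p = 0.403). Kdm6b, the other enzyme for the Polycomb mark, was at -0.18 ± 0.16 and just missed the threshold (adjusted p = 0.0512).

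Several probes were kept for 22 of the genes, which shows how far a value depends on the probe. Calls were the same for all probes of 11 genes, mixed for 9 and opposite for 2, Suv420h1 and Tet3. Probes of Dnmt3b, Hdac6, Hdac10, Sirt6, Suv39h2, Tet1, Tet2, Ezh1, Kdm2a, Kdm5b and Sirt4 gave the same call. Dnmt3b had probes at -1.40, -1.46 and -0.45, the last from transcript position 2950, upstream of the others at 4255 and 3843. The size of the Dnmt3b decrease thus differed between probes, and its direction did not.

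**Figure D4:**
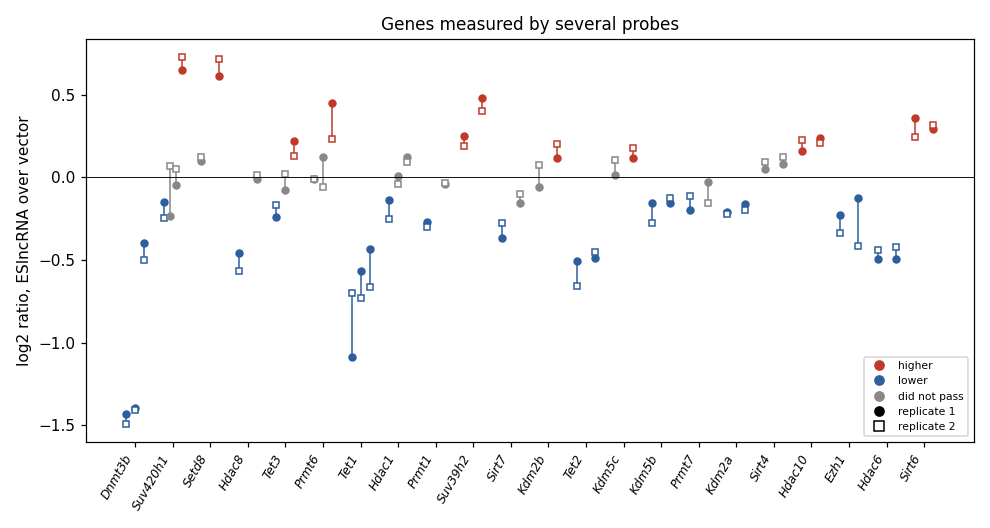
Log2 ratio of ESlncRNA over vector (y axis) for each kept probe of the 22 chromatin enzyme genes with several probes (x axis), replicate 1 as filled circles and replicate 2 as open squares, coloured by the call of that probe. Probes of Suv420h1 reach from -0.20 to 0.69 in the mean and those of Setd8 from 0.11 to 0.66, while the 3 probes of Tet1 are all lower.

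Genes that work with these enzymes were described from lists chosen with earlier results known. Counts in these lists stand beside 26.3% higher and 36.8% lower among all genes. Of 16 measured partners of DNA methylation, 6 were lower, 3 higher and 7 not past (median -0.06). Gadd45b, a stress-induced protein linked to demethylation, went from 8.93 and 8.86 to 6.99 and 6.79, a ratio of -2.01 ± 0.10 (adjusted p = 5.65e-07). Tdg, the glycosylase that excises oxidised methylcytosine made by TET enzymes, rose by 0.76 ± 0.024 and Usp7, a deubiquitinase that binds Dnmt1, by 0.55 ± 0.10. Uhrf1, which brings Dnmt1 to replicated DNA, was at -0.21 and Hells, a remodeller needed for methylation, at -0.25, both called lower. Deacetylase complexes had 28 listed partners, 6 of them higher, 9 lower and 13 not past (median -0.01). Chd3, a NuRD remodeller, was at -0.88 and Rcor2 at -0.50.

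Of 18 subunits of Polycomb repressive complex 1, 10 were lower (55.6%), 4 higher (22.2%) and 4 not past (median -0.18). For this list and the next ones, the shares among all genes were 36.8% lower and 26.3% higher. Among the subunits reported here, which leave out the lowest of the list, Pcgf5 was at -0.57 and Ring1, a ubiquitin ligase subunit, at 0.35. The 19 histone acetyltransferase genes had a median of -0.01, with 6 higher, 8 lower and 5 not past. Ncoa3, a nuclear receptor coactivator, was 3.77-fold lower (-1.91 ± 0.047), Ncoa1 was at -0.52 and Ing4 at -0.32. Of 30 other histone methyltransferase and MLL complex genes measured 10 were higher, 10 lower and 10 not past (median -0.02). Carm1, an arginine methyltransferase and coactivator named outside the Prmt series, rose by 0.71 ± 0.088, Psip1 rose by 0.45 and Smyd3 fell by 0.64. Measured demethylases under other names numbered 12, with a median of 0.11, and 6 were higher, 3 lower and 3 not past. Riox1 was at -0.46, Jmjd4 at 0.32 and Phf2 at 0.30. The medians of these partner lists, those for partners of complex 2 included, moved under median centring to between 0.16 and 0.62, against 0.34 for all genes.

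The label of erythroid progenitors was set against marker lists in the same RNA. Among all genes 26.3% were higher and 36.8% lower. All 22 erythroid markers were measurable and 17 were higher with ESlncRNA, 1 lower and 4 not past (median 0.74). Their summed level (log2 intensity) was 19.04 to 19.27 with vector and 19.69 to 19.86 with ESlncRNA. In the cell cycle list, 19 of 31 genes were higher, 5 lower and 7 not past (median 0.18), among them Ccne1, cyclin E1, at 0.93, Rrm2, of ribonucleotide reductase, at 0.52 and Cdc45, a replication factor, at -0.54. Beside these, 15 of 15 measured macrophage markers (18 on the array), 10 of 10 mast cell and basophil markers (13 on the array), 15 of 15 megakaryocyte markers and 10 of 11 endothelial and stromal markers (12 on the array) were lower, with medians of -1.03, -3.04, -1.43 and -1.09. With the scanner software's processed signals these medians were -2.79, -3.60, -1.68 and -3.10, so their size depends on the processing. The counts also include any marker that passed the background filter through vector RNA alone, which could hardly come out as anything but lower. How many entered in that way was not counted. Of 10 hepatocyte markers measured 8 fell (median -0.51, or -1.07 with the processed signals). Of 7 lymphocyte markers 4 fell and 2 rose, while the other 10 lymphocyte markers were not measurable. The summed macrophage level was 14.87 to 14.91 with vector and 12.74 to 12.82 with ESlncRNA. Housekeeping genes were not level either, with Actb at 0.40, Tbp at 0.41, Gapdh at 0.31, Ppia at 0.27, Hprt at 0.22 and B2m at -0.64, and their median was 0.27 with loess. Median centring moved that median to 1.15, and the processed signals to -0.04. What part these cell types have in the chromatin enzyme values was not tested.

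How far a call held depended on the gene. Of the 38 called genes, 17 higher and 18 lower ones had a value in each of the 10 processing settings, and 6 higher and 5 lower ones were called with 1 sign in each. The higher ones were Suv39h1, Suv39h2, Hdac7, Ezh2, Sirt6 and Hdac10, and the lower ones Dnmt3a, Dnmt3b, Hdac5, Tet1 and Sirt5. Dnmt3l, Hdac9 and Hdac11 had no value where both channels had to be above background, since they entered through the channel in which they were brighter, and they are not counted here. Relative to the median of all genes, the 17 higher genes and 13 of the 18 lower ones kept their sign in these settings. The exceptions were Kdm4a, Kdm4b, Kdm5b, Setd2 and Suv420h2. Some settings repeat the same ratios. Without the background filter, with both channels required and with separate channels, the log2 ratios were those of the main setting, and only the calls could differ. The mean of probes equals the main value where a gene had 1 probe. The authors' values nearly repeat those without background subtraction. Dim genes varied most in size, and Hdac11 ranged from 0.37 to 1.83 and Hdac9 from -2.20 to -0.34.

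**Figure D5:**
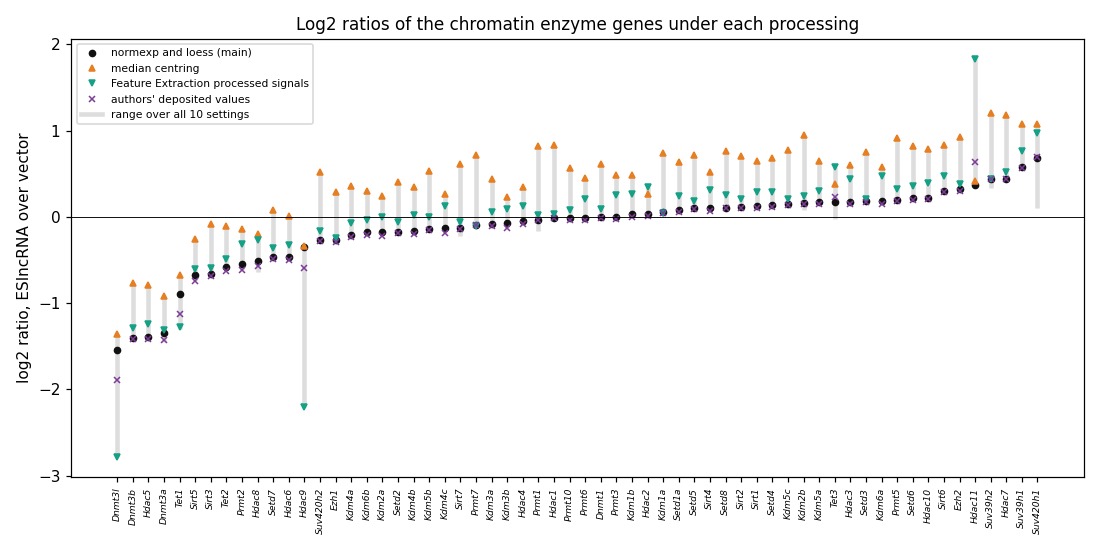
Log2 ratio of ESlncRNA over vector (y axis) of the 60 chromatin enzyme genes (x axis, ordered by the main value), with the main value in black, median centring in orange, processed signals in green, the authors' deposited values in purple and the range over all 10 settings as a grey bar. Median centring lifts bright genes, so that most lie above 0, while Dnmt3l, Dnmt3b, Hdac5, Dnmt3a, Tet1 and Sirt5 stay below 0 under each setting that gave them a value.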

How the data were processed

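The authors deposited 1 Feature Extraction file per array (version 10.1.1.1, per the file headers). The deposited values used were intensities, the mean spot signal and the median local background per channel. The deposited processed intensities served as an alternative, and the deposited log10 ratios checked the direction (r = 0.986 and 0.992). The authors' deposited log2 values, credited to limma with no version in the submitters' processing notes, matched loess ratios without background subtraction (r = 0.99996 for both arrays, medians -0.02 and -0.01), which settled their scale and direction. They were an alternative.

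Background was corrected with normexp (offset 50), and ratios were normalized by loess in R 4.3.3 with limma 3.58.1. Control spots had weight 0, as had outlier spots (284 and 308 of 59305 non-control spots). No spot was saturated, that is 0 on each array. Spots of a probe were averaged, and 26790 of 55681 probes had a signal well above background in 1 or both channels of each array. A gene is represented by its brightest kept probe. Limma's intercept model had 1 residual degree of freedom and a prior of 5.27, with Benjamini-Hochberg adjustment over all kept probes and a threshold of 0.05, beside a rule of size of 1.5-fold or 2-fold on both arrays. Channel levels are after loess and Aquantile. Of the 38 called genes, 2 had levels that overlapped between the groups, so a lack of overlap adds little to a call. Overlap was not counted over all genes. Where 1 channel was dim on both arrays, "at least" marks a bound, set against that dim signal or, if higher, the lowest detected signal, and open to dye bias. Both arrays lay on 1 slide, so no batch could be tested, and the number of arrays limits the precision.

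Of the 64 genes, 61 were matched to the RefSeq table of GRCm38.p6 by accession. Its current symbols for Setd8, Suv420h1, Suv420h2 and Prmt10 are Kmt5a, Kmt5b, Kmt5c and Prmt9. Probe coordinates are those of the files, on mm9. Named were every chromatin enzyme gene, the 3 genes of largest ratio among those called with 1 sign on both arrays in each partner list and among the cell cycle genes, and the housekeeping genes, except 3 that are not reported here; Dnmt1 partners Uhrf1 and Hells, and Suz12 and Eed, were named after their values were seen. The genes, lists and tests were chosen with earlier results of these data known. The rule also covered the cell type marker lists, but these are given by counts, medians and sums, with no gene named.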

Additional observations from a re-analysis of the deposited data

How the results depend on the processing

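With the main settings 18 genes were higher and 20 lower, and 47.4% of the calls were higher. With Feature Extraction's processed signals 27 were higher and 12 lower (69.2% higher), and with median centring 47 and 8 (85.5% higher). The median of all genes moved to 0.11 and 0.34 in these settings and that of the chromatin enzyme genes to 0.11 and 0.52. Of all genes, 34.3% were higher and 23.7% lower with the processed signals, and 63.0% and 18.3% with median centring. The share of higher calls was 36.0% with a normexp offset of 0 (9 higher) and 35.5% without background subtraction (11 higher). With the authors' deposited values it was 35.7% (10 higher). Of all genes, 19.8%, 22.7% and 18.1% were higher in these settings. In a fit of the separate channels with no replicate block, which drops the pairing of the channels on an array, 8 genes were higher and 15 lower. Of all genes, 17.3% were higher and 28.8% lower in that fit. Chromatin enzyme genes at least 1.5-fold higher numbered 3 with the processed signals, 2 with offset 0, 23 with median centring and 0 when a gene's probes were averaged. With either array alone they numbered 1 to 2, the genes at least 1.5-fold lower 7 to 8, and the median ran from -0.03 to 0.005. The share of all genes at this size was not counted outside the main settings. One array leaves no test.

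Signs, of called and other genes, turned for 10 genes with the processed signals, 21 with median centring and 2 each with offset 0, without background subtraction, with the authors' deposited values and with the mean of probes. Among genes called before or after, those that turned were Kdm4b (0.024) and Prmt6 (0.21) with the processed signals and Tet3 (-0.019) with the mean of probes. With median centring they were Dnmt1 (0.61), Ezh1 (0.29), Hdac1 (0.84), Hdac4 (0.35), Hdac6 (0.014), Kdm2a (0.24), Kdm3a (0.44), Kdm3b (0.24), Kdm4a (0.35), Kdm4b (0.35), Kdm4c (0.27), Kdm5b (0.53), Kdm6b (0.30), Prmt1 (0.82), Prmt10 (0.57), Prmt6 (0.45), Prmt7 (0.72), Setd2 (0.40), Setd7 (0.083), Sirt7 (0.62) and Suv420h2 (0.52). The cause was not tested. Signal over background limits Dnmt3l, Hdac9, Hdac11, Tet1, Tet3 and Hdac2 most.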
